A study of Mus musculus with 8 samples.

Results

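The core circadian clock genes described here are Arntl, Clock, Npas2, Per1, Per2, Per3, Cry1, Cry2, Dbp and Ciart. They were chosen by name, with earlier results of these data known. Symbols were taken from GENCODE M21, and the clock genes make up 10 of the 46517 genes counted in whole livers. The livers came from 4 male WT littermates (replicates 22 to 25) and 4 male MøFoxO1-KO mice (replicates 26 to 29), and their RNA was sequenced. Both groups were C57BL/6 mice that carried FoxO1 loxP/loxP alleles, so the WT littermates were floxed as well. MøFoxO1-KO mice also carried Lyz2-Cre, in which the lysozyme 2 promoter drives Cre recombinase in myeloid cells, so that FoxO1 in hepatocytes was not targeted. All 8 mice were fed a NASH diet, which induces steatohepatitis, for 25 weeks from 6 weeks of age, and livers were collected at 31 weeks after a 16-hour fast. The hour of day at which each liver was collected is not given in the sources used here, and its part in the values below was not tested.

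The circadian clock is a feedback loop of transcription that runs in nearly every cell, hepatocytes included. The proteins BMAL1 (encoded by Arntl) and CLOCK, or its relative NPAS2, bind E-box sequences and activate the Per and Cry genes, whose products return to the nucleus and repress their own activators. Arntl transcripts therefore peak at about the opposite time of day to those of E-box targets such as Per2, Per3 and Dbp, and in liver the hour of feeding can set the phase. Dbp encodes a transcription factor that carries the rhythm to metabolic genes through D-box sequences, and Ciart encodes a repressor of the loop. A second loop, in which REV-ERB proteins repress and ROR proteins activate through a shared element, controls Arntl.

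Total counts per mouse lay between 15253218 and 18025481, and mitochondrial genes held 4.163 to 6.332% of them. Levels are given as normalized counts, which are counts scaled by edgeR's TMM library sizes to the mean library of the 8 mice. Foxo1 itself had 395, 459, 303 and 459 normalized counts in WT replicates 22 to 25 and 429, 302, 416 and 290 in MøFoxO1-KO replicates 26 to 29, with a log2 fold change of -0.17 ± 0.18 (SE, edgeR, Benjamini-Hochberg adjusted P = 0.686). Hepatocyte markers such as Alb were abundant in every liver. Each marker of the 6 liver cell types examined had counts when the 8 mice were summed, and single livers were not checked for markers at 0. WT replicate 23 stood apart from the other libraries, with a mean Spearman correlation of 0.952 with the rest, against 0.9601 to 0.9715 for the other 7. It also had the lowest summed level of macrophage markers (2941 normalized counts, against up to 4947 in WT and 3144 to 12360 in MøFoxO1-KO livers), of endothelial markers (1392, against up to 2598 and 2143 to 3044) and of lymphocyte markers (31.5, against up to 198 and 108 to 240). At an unadjusted P under 0.05 (edgeR, 16.7% of all tested genes), 4 of 8 macrophage and 2 of 8 hepatocyte markers were higher in MøFoxO1-KO livers, 1 of 5 stellate cell markers was lower, and none of the endothelial, cholangiocyte and lymphocyte markers passed. The part of cell composition in the results below was not tested, and in whole liver fewer cells of a type and less RNA per cell cannot be told apart.

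Promoters were read from a table of RefSeq start sites on GRCm38.p6, which held 13 windows of 250 bases before and 50 bases from the start for 9 of the 10 genes. Per2 was not matched. Motifs were searched on both strands. The E-box (CACGTG), to which BMAL1 and CLOCK bind, was found in 3 of the 13 windows and in 7.15% of all 32851 promoters in the table. These windows belonged to Ciart, Cry1 and Per1. Those of Dbp and Per3 held no E-box, and sequence outside the windows was not searched. Ciart held 3 E-boxes, with first bases 116, 58 and 44 bases before the start, while 0.594% of all promoters held at least 2. The D-box (TTANGTAA), the element bound by DBP and its relatives, occurred at 205 and 158 bases before the start of Per3, whereas 2.32% of all promoters held it once or more and 0.0822% at least 2 times. The core of the ROR/REV-ERB element (TAGGTCA, in 2.61% of promoters) was found in 1 of the 13 windows, 30 bases downstream of a start of Arntl. A variant E-box (CACGTT, in 4.68% of promoters) was found in the windows of Cry1 and Cry2, and the cAMP response element (TGACGTCA, in 1.79%) in none of the 13. Stretches that hold these elements are printed 5′ to 3′ because they are the elements through which the loop is known to act on its own genes. In them, capitals mark the matches, and a match is a description of letters and not of binding.
Ciart, chr3:95882229-95882478, minus strand: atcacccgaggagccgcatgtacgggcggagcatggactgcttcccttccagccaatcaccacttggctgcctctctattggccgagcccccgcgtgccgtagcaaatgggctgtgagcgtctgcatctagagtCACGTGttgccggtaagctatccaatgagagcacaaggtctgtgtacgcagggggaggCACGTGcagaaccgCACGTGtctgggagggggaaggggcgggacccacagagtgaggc
Per3, chr4:151044666-151044915, minus strand: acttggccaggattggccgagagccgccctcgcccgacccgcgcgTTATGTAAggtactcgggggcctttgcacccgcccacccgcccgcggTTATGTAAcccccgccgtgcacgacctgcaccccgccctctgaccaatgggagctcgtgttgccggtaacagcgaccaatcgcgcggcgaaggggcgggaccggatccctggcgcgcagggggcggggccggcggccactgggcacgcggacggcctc
Cry1, chr10:85185095-85185144, minus strand, with the variant E-box (its reverse complement) before the E-box: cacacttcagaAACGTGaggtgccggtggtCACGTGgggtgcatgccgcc
Per1, chr11:69098759-69098808, plus strand: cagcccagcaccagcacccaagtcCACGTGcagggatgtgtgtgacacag
Arntl, chr7:113207531-113207557, plus strand: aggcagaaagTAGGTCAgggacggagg

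MøFoxO1-KO and WT livers overlapped in all 10 clock genes. None of the 10 was called by edgeR with the limits of an adjusted P below 0.05 and a log2 fold change beyond 1.5 in either direction, which 25 of 13278 tested genes passed (0.188%), and none passed the adjusted P alone, which 0.294% of tested genes did. At an unadjusted P under 0.05, edgeR placed 0 of the 10 past the limit, where 16.7% of all tested genes lay, and DESeq2 and limma-voom each placed 1 of the 10 (Per1) there and called none. Non-overlapping groups occurred in 9.71% of all tested genes and in none of the 10. Adjusted P values (edgeR, Benjamini-Hochberg) ranged from 0.305 for Per1 to 0.880 for Cry2. The log2 fold change was positive for 4 genes and negative for 6, with a median of -0.17, and the median of all tested genes was -0.01. Without WT replicate 23 the median of the 10 was 0.04. Levels also varied from mouse to mouse. WT replicate 23 and MøFoxO1-KO replicate 28 lay at opposite ends for Arntl, Clock, Npas2, Per2, Per3 and Dbp.

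**Figure D1:**
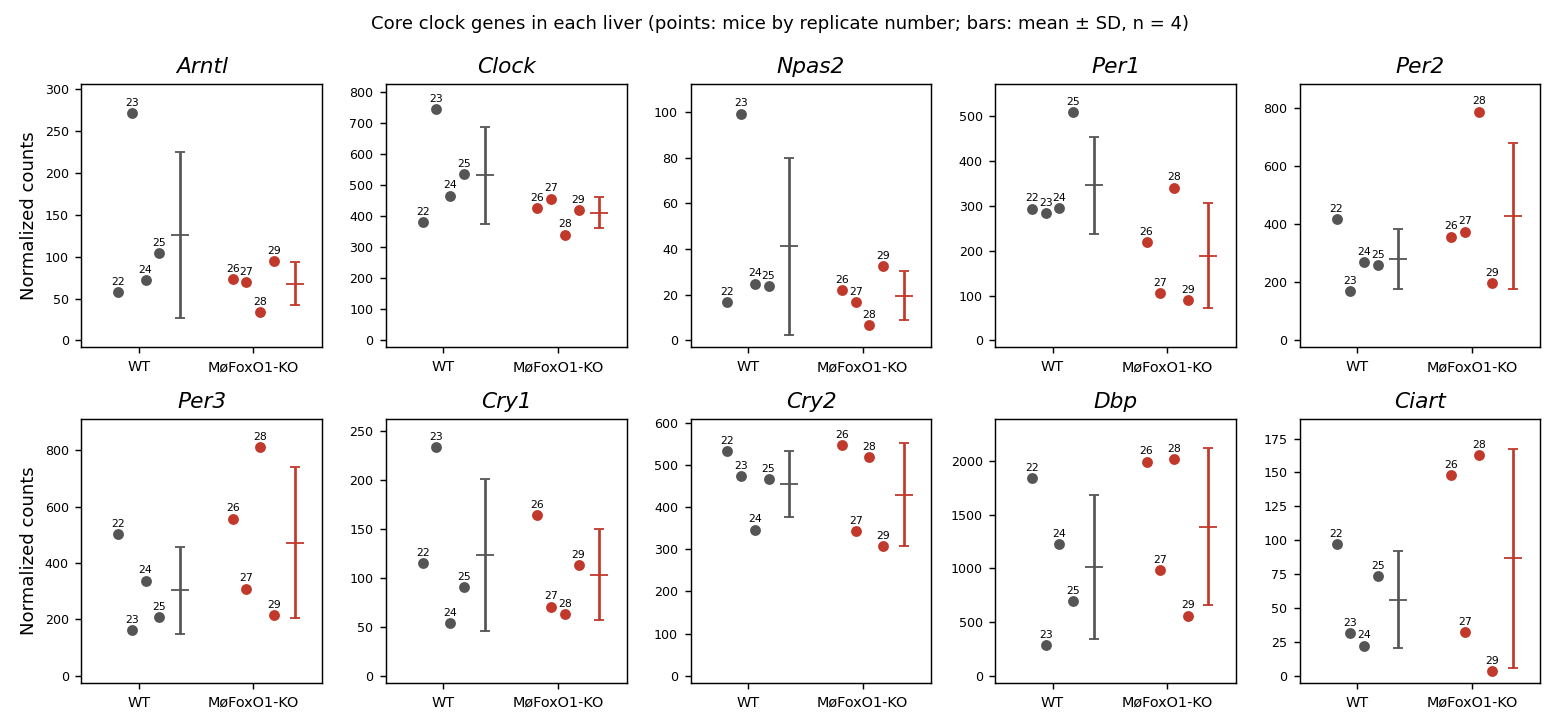
Normalized counts (y axis, linear) of the 10 clock genes in each liver, with points numbered by replicate and bars showing the mean ± SD of 4 mice. The groups overlap in every panel, and replicate 23 is the highest of all 8 mice in Arntl, Clock, Npas2 and Cry1.

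Among the activators, Arntl (ENSMUSG00000055116, chromosome 7, 113207465 to 113314122, GRCm38) encodes BMAL1. Arntl had 58.1, 272, 72.0 and 104 normalized counts in WT replicates 22, 23, 24 and 25, and 72.9, 69.3, 34.2 and 95.2 in MøFoxO1-KO replicates 26, 27, 28 and 29. Replicate 23 was the highest and replicate 28 the lowest of the 8, and the other 6 lay between them without regard to genotype. The means were 126 ± 99.1 (SD, n = 4) in WT and 67.9 ± 25.2 in MøFoxO1-KO livers. This gave a log2 fold change of -0.90 ± 0.49 (SE), with a 95% interval from -1.99 to 0.19 (edgeR, Benjamini-Hochberg adjusted P = 0.391; exact permutation test, P = 0.343). It was -0.20 without WT replicate 23.

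Clock (ENSMUSG00000029238, chromosome 5, 76209868 to 76304792) encodes the partner of BMAL1. Clock had 379, 744, 465 and 535 normalized counts in the WT livers, in the same order of replicates, and 426, 456, 340 and 418 in the MøFoxO1-KO livers. It spanned only 2.19-fold over the 8 mice, with replicate 23 again highest and replicate 28 lowest. Its log2 fold change was -0.37 ± 0.20 (SE, 95% interval -0.81 to 0.06, edgeR, Benjamini-Hochberg adjusted P = 0.371; exact permutation test, P = 0.171), and it was -0.17 without WT replicate 23.

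Npas2 (ENSMUSG00000026077, chromosome 1, 39193731 to 39363236) encodes a relative of CLOCK that can take its place. Npas2 had 16.9, 99.3, 24.9 and 23.9 normalized counts in WT livers and 22, 16.7, 6.64 and 32.5 in MøFoxO1-KO livers. Replicate 23 was far above the other WT mice, and the remaining WT values lay inside the range of the MøFoxO1-KO values. Only 7 to 101 reads per mouse stand behind these values, so counting error is larger here than for the other activators. The log2 fold change of Npas2 was -1.08 ± 0.63 (SE, 95% interval -2.49 to 0.32, edgeR, Benjamini-Hochberg adjusted P = 0.424; exact permutation test, P = 0.343), and -0.18 without WT replicate 23.

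Of the Period repressors, Per1 (ENSMUSG00000020893, chromosome 11, 69095217 to 69109960) is known to respond acutely to cAMP and glucocorticoids as well as to the loop. Per1 had 294, 285, 295 and 509 normalized counts in WT livers and 220, 105, 341 and 89.6 in MøFoxO1-KO livers. Replicate 28 was the only MøFoxO1-KO mouse within the WT range, and the other 3 were below every WT mouse. The means were 346 ± 109 (SD, n = 4) and 189 ± 117. Per1 had the smallest P of the 10 genes, with a log2 fold change of -0.87 ± 0.39 (SE, 95% interval -1.74 to 0.01, edgeR, Benjamini-Hochberg adjusted P = 0.305; exact permutation test, P = 0.114). The unadjusted P was 0.0519 by edgeR, 0.0266 by DESeq2 and 0.0261 by limma-voom. Leaving out MøFoxO1-KO replicate 28 gave -1.31 (edgeR, unadjusted P = 0.0039, Benjamini-Hochberg adjusted P = 0.116), and over all alternatives and mice left out the adjusted P did not pass the limit.

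Per2 (ENSMUSG00000055866, chromosome 1, 91415982 to 91459324) encodes a further repressor of the same family. Per2 had 418, 170, 270 and 260 normalized counts in WT livers and 358, 375, 789 and 197 in MøFoxO1-KO livers. Here replicate 23 was the lowest and replicate 28 the highest of the 8, the reverse of Arntl. The log2 fold change was 0.62 ± 0.39 (SE, 95% interval -0.25 to 1.49, edgeR, Benjamini-Hochberg adjusted P = 0.458; exact permutation test, P = 0.371).

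Per3 (ENSMUSG00000028957, chromosome 4, 151003652 to 151044665), whose promoter held both D-boxes shown above, had 504, 161, 338 and 207 normalized counts in WT livers and 558, 309, 811 and 214 in MøFoxO1-KO livers. Replicates 23 and 28 were again the lowest and the highest, and replicate 29 lay beside WT replicate 25. Per3 had a log2 fold change of 0.65 ± 0.44 (SE, 95% interval -0.33 to 1.63, edgeR, Benjamini-Hochberg adjusted P = 0.50; exact permutation test, P = 0.286). Without MøFoxO1-KO replicate 28 it was 0.26 for Per3 and 0.16 for Per2, and without WT replicate 23 it was 0.44 for both. Leaving out WT replicate 22 gave 1.01 for Per3.

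The cryptochromes encode the partners with which the PER proteins repress BMAL1 and CLOCK. Cry1 (ENSMUSG00000020038, chromosome 10, 85131702 to 85185054) had 115, 233, 53.5 and 90.6 normalized counts in WT livers and 164, 70.5, 62.6 and 113 in MøFoxO1-KO livers. Replicate 23 was the highest, as for the activators, and replicate 24 the lowest. For Cry1 the log2 fold change was -0.26 ± 0.44 (SE, 95% interval -1.25 to 0.73, edgeR, Benjamini-Hochberg adjusted P = 0.808; exact permutation test, P = 0.686), and without WT replicate 23 it turned to 0.25. The lowest value with any mouse left out was -0.59, when MøFoxO1-KO replicate 26 was dropped.

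Cry2 (ENSMUSG00000068742, chromosome 2, 92403646 to 92434043) had 533, 473, 347 and 467 normalized counts in WT livers and 548, 343, 519 and 308 in MøFoxO1-KO livers. It spanned the smallest range of the 10 over the 8 mice, 1.78-fold, and each group held values near both ends of that range. The genotypes differed by a log2 fold change of -0.08 ± 0.21 (SE, edgeR, Benjamini-Hochberg adjusted P = 0.880; exact permutation test, P = 0.83). With a 95% interval from -0.54 to 0.38, Cry2 had, beside Clock, the narrowest interval of the clock genes. The sign of its log2 fold change turned when WT replicate 22 or MøFoxO1-KO replicate 27 or 29 was left out. Exons of Cry2 share 295 bases with D930015M05Rik on the opposite strand, which had 43 counts over the 8 mice.

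Dbp (ENSMUSG00000059824, chromosome 7, 45705088 to 45710155) is the output factor of the loop. Dbp had 1839, 286, 1228 and 697 normalized counts in WT livers and 1994, 984, 2015 and 559 in MøFoxO1-KO livers. WT replicate 22 and MøFoxO1-KO replicates 26 and 28 were close together at the top, and replicate 23 was the lowest by a wide margin. The log2 fold change was 0.46 ± 0.54 (SE, 95% interval -0.74 to 1.65, edgeR, Benjamini-Hochberg adjusted P = 0.716; exact permutation test, P = 0.457). Dropping WT replicate 23 gave 0.15 and dropping WT replicate 22 gave 0.91. Among the MøFoxO1-KO mice, dropping replicate 26 or 28 gave 0.23 and dropping replicate 29 gave 0.72. Exons of Dbp share 491 bases with Sphk2 on the opposite strand, and whether reads were counted by strand is not given in the sources used here, so reads in these bases could belong to either gene.

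Ciart (ENSMUSG00000038550, chromosome 3, 95878503 to 95882251), the repressor with 3 E-boxes in its promoter, had 97.4, 31.5, 22.2 and 73.7 normalized counts in WT livers and 148, 32.2, 163 and 3.36 in MøFoxO1-KO livers. Replicates 26 and 28 were above every WT mouse, replicate 27 was within the WT range and replicate 29, with 3 reads, was below it. The log2 fold change of Ciart was 0.63 ± 0.83 (SE, 95% interval -1.20 to 2.47, edgeR, Benjamini-Hochberg adjusted P = 0.743; exact permutation test, P = 0.514), and it was -0.06 by limma-voom. Among the MøFoxO1-KO mice, it was 0.14 with replicate 28 dropped, 0.25 with replicate 26 dropped and 1.03 with replicate 29 dropped. Among the WT mice, it was 0.37 with replicate 24 dropped and 1.04 with replicate 22 dropped.

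**Figure D2:**
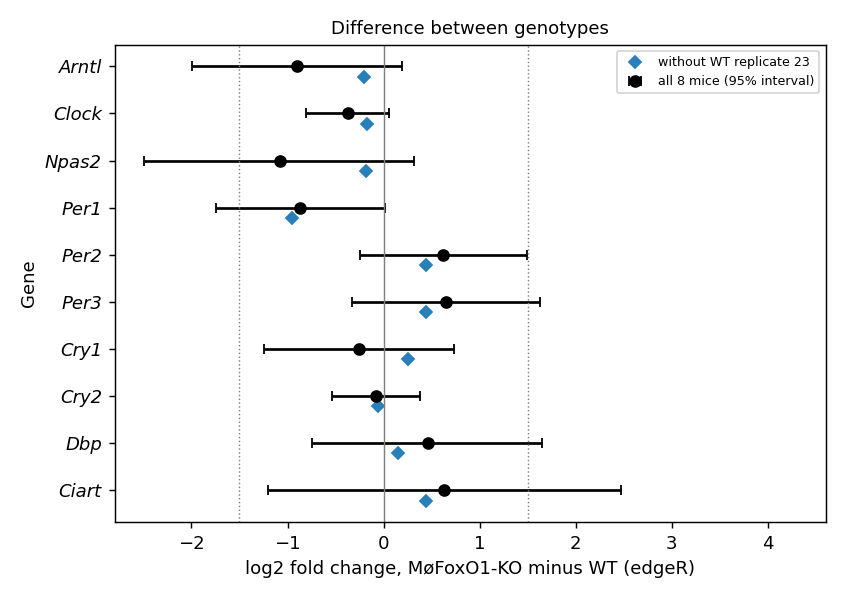
Log2 fold change between MøFoxO1-KO and WT livers (x axis) for each clock gene, with the edgeR estimate and its 95% interval from 8 mice (black) and the estimate without WT replicate 23 (blue). Every interval includes 0, dotted lines mark the limit of 1.5, and without replicate 23 Arntl moves from -0.90 to -0.20 and Npas2 from -1.08 to -0.18.

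Intervals for Clock and Cry2 lay within 1.5 on the log2 scale in both directions, as did that of Per2 and that of Cry1. Those of Arntl, Npas2, Per1, Per3, Dbp and Ciart reached past that limit on at least one side, so a difference of that size in these genes lay within the error of 4 mice per group. An adjusted P above the limit does not show that the genotypes were alike.

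Levels were compared between genes only per length, as RPKM, which are normalized reads scaled to exon length and library size. In WT livers Dbp was the highest at 21 ± 13.9 RPKM (SD, n = 4), followed by Cry2 (4.39 ± 0.751), Per1 (3.74 ± 1.18), Per2 (2.91 ± 1.07), Arntl (2.65 ± 2.08), Cry1 (2.49 ± 1.57), Clock (2.36 ± 0.692), Per3 (1.92 ± 0.975), Ciart (1.51 ± 0.956) and Npas2 (0.525 ± 0.495). Each neighbouring pair in this order differed by less than the spread between mice, except that Dbp lay above Cry2, and Ciart above Npas2, by more than the SD of either gene. In MøFoxO1-KO livers Dbp was again the highest at 28.7 ± 15.2 RPKM and Npas2 the lowest at 0.248 ± 0.137, and Per2 (4.47 ± 2.63), Cry2 (4.14 ± 1.17), Per3 (3.0 ± 1.70), Ciart (2.33 ± 2.17), Cry1 (2.07 ± 0.941), Per1 (2.04 ± 1.26), Clock (1.82 ± 0.220) and Arntl (1.42 ± 0.529) lay between them. Arntl and Npas2, the last 2 in that order, and Dbp and Per2, the first 2, differed by more than the SD of either gene, and no other neighbours did.

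Spread between mice of the same genotype was wide for most clock genes. The pooled within-group SD of log2 CPM (log2 of TMM-scaled counts relative to library size, with a prior count of 2) was 1.77 for Ciart, 1.03 for Dbp, 0.97 for Npas2, 0.81 for Arntl, 0.79 for Per3, 0.76 for Cry1, 0.69 for Per1 and for Per2, 0.35 for Cry2 and 0.32 for Clock. The median of the 10 was 0.77, and that of all tested genes was 0.28. Ciart was at the 99.5th percentile of all tested genes by this measure, Dbp at the 97.5th, Npas2 at the 96.8th, Arntl at the 93.9th and Per3 at the 93.4th, whereas Cry2 was at the 62.2nd and Clock at the 56.9th. Genes with few reads spread more through counting error alone, which bears on Npas2 and on the Ciart value of replicate 29, but Dbp had at least 291 reads in every mouse. Arntl spread more among WT mice (SD 0.97, against 0.61 in MøFoxO1-KO mice), and Per1 and Ciart more among MøFoxO1-KO mice (0.90 against 0.40, and 2.32 against 0.96). These differences in spread were not tested.

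**Figure D3:**
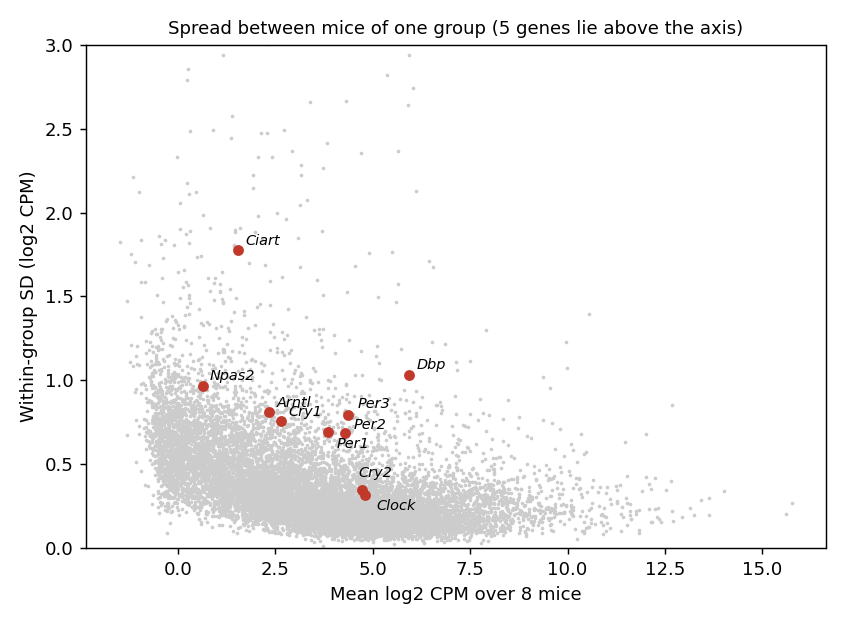
Pooled within-group SD of log2 CPM (y axis) against mean log2 CPM over 8 mice (x axis) for all 13278 tested genes (grey) and the 10 clock genes (red). Most of the clock genes lie above the bulk of genes of like mean level, from 0.69 for Per1 and Per2 up to 1.77 for Ciart, while Clock and Cry2 lie near it at 0.32 and 0.35.

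Taken mouse by mouse, Arntl, Clock, Npas2, Per2, Per3 and Dbp deviated in a shared pattern. Relative to the median of the 8 mice, WT replicate 23 was higher by 1.88 for Arntl, 2.02 for Npas2, 1.19 for Cry1 and 0.75 for Clock on the log2 scale, and it was at -1.93 for Dbp, -0.99 for Per3 and -0.86 for Per2. MøFoxO1-KO replicate 28 showed the opposite, at -1.04 for Arntl, -1.53 for Npas2 and -0.37 for Clock, and at 1.34 for Per2, 1.32 for Per3, 0.87 for Dbp and 1.70 for Ciart. Per1 and Cry2 of replicate 23 were at the median, with deviations of -0.02 and 0.01. Ciart of replicate 23 was at -0.61, above WT replicate 24 and MøFoxO1-KO replicate 29. Cry1, Per1 and Cry2 of replicate 28 were at -0.68, 0.23 and 0.14, and none of these was the highest or lowest of the 8. The log2 ratio of Arntl to Dbp, an activator over an E-box target, was -4.94, -0.07, -4.05 and -2.73 in WT livers and -4.74, -3.79, -5.80 and -2.53 in MøFoxO1-KO livers. It spanned 53.1-fold over the 8 mice, and the MøFoxO1-KO values overlapped those of WT replicates 22, 24 and 25.

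**Figure D4:**
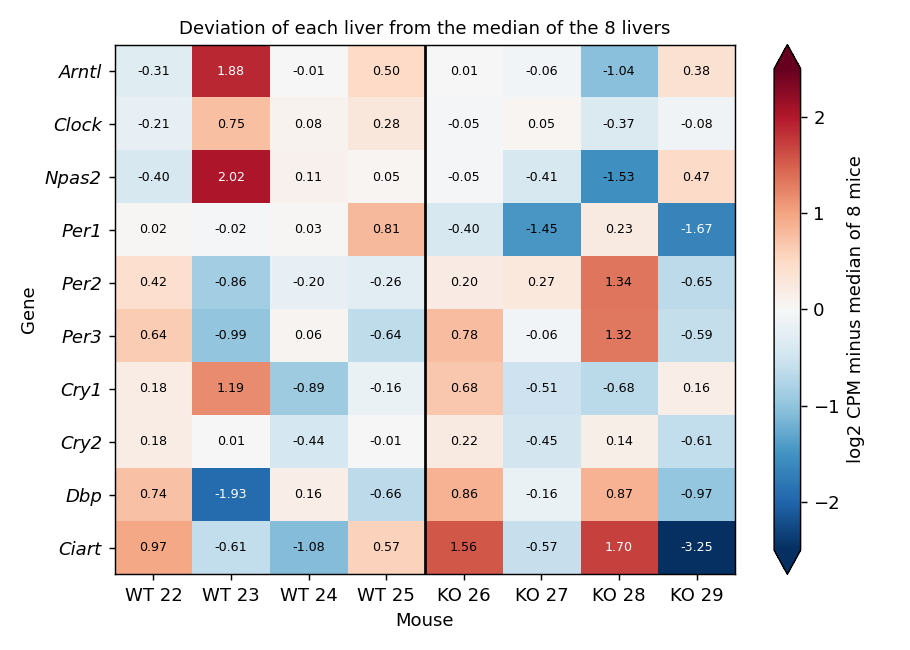
Deviation of log2 CPM from the median of the 8 mice, for each clock gene (rows) in each liver (columns, WT left of the line and MøFoxO1-KO, labelled KO, right of it), with the value printed in each cell and colour from blue (lower) to red (higher). Columns WT 23 and KO 28 mirror each other for Arntl, Clock, Npas2, Per2, Per3 and Dbp. Arntl is at 1.88 and -1.04 and Per2 at -0.86 and 1.34.

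Correlations over the 8 mice were computed for all 45 pairs of the 10 genes, with exact permutation P values and Benjamini-Hochberg adjustment over the 45. The pairs share the same 8 libraries and are not independent of each other. By Pearson's r, 15 pairs had an adjusted P under 0.05, of which 7 were positive and 8 negative. The positive pairs joined Arntl, Clock and Npas2 with each other, Per2, Per3 and Dbp with each other, and Cry2 with Ciart. All 8 negative pairs joined one of Arntl, Clock and Npas2 with one of Per2, Per3 and Dbp, and the remaining pair across these sets, Clock with Per2, had r = -0.78 (exact permutation test, adjusted P = 0.0822). Per1, which is also an E-box gene, was not among the 15 pairs, and its r lay between -0.08 with Npas2 and 0.67 with Cry2. Cry1 was not among them either, and its r with Arntl was 0.71 (exact permutation test, adjusted P = 0.12).

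The activators Arntl and Npas2 had r = 0.98 (exact permutation test, P = 0.00107, adjusted P = 0.011) and rho = 0.86 (P = 0.0107, adjusted P = 0.0804, exact), and r was 0.93 without WT replicate 23 and 0.74 without the 2 mice farthest from the median of Arntl. Arntl and Dbp had r = -0.90 (exact permutation test, P = 0.00124, adjusted P = 0.011) and rho = -0.81 (P = 0.0218, adjusted P = 0.0967, exact), with r = -0.77 without WT replicate 23 and -0.82 without the 2 farthest mice. Per3 and Dbp, both targets of the activators, had r = 0.94 (exact permutation test, P = 0.00067, adjusted P = 0.011) and rho = 0.98 (P = 0.000397, adjusted P = 0.0171, exact), and r was 0.95 without WT replicate 23 and 0.98 without the 2 farthest mice. Without WT replicate 23, the adjusted P was 0.0548 for Arntl with Npas2, 0.111 for Arntl with Dbp and 0.0223 for Per3 with Dbp (exact permutation tests over 7 mice).

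**Figure D5:**
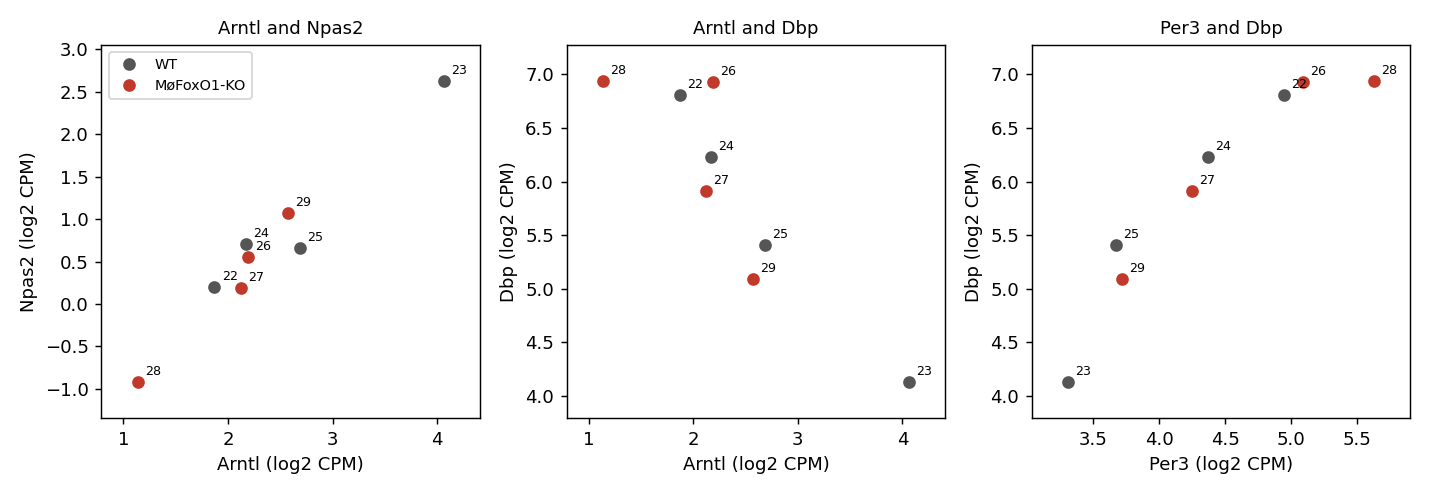
Log2 CPM of pairs of clock genes in each liver, with WT in grey, MøFoxO1-KO in red and points numbered by replicate. Arntl and Npas2 run together (r = 0.98), Arntl and Dbp run in opposite directions (r = -0.90) and Per3 and Dbp run together (r = 0.94). The 2 genotypes are mixed along each line, except that WT 23 and KO 28 lie at opposite ends for every gene shown.

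The pairs that passed the adjusted limit by Spearman's rho were 3, namely Arntl with Per2 (rho = -0.95), Npas2 with Per2 (rho = -0.95) and Per3 with Dbp (rho = 0.98), with an adjusted P of 0.0171 each (exact permutation tests). These 3 also passed by r after each gene was centred on its group means, where 5 pairs did, and without WT replicate 23, where 5 pairs did. Without that mouse, r was -0.95 for Arntl with Per2, -0.98 for Npas2 with Per2 and 0.93 for Cry2 with Ciart (exact permutation tests, adjusted P = 0.0357, 0.0223 and 0.0238). All 15 pairs kept their sign in these alternatives. Without the 2 mice farthest from the median of the first gene, 6 mice remained and 0 pairs passed the adjusted limit. At an unadjusted P under 0.05, 4 pairs still did so, which were Arntl with Per2, Npas2 with Per2, Per3 with Dbp and Cry2 with Ciart (exact permutation tests, P = 0.0431, 0.00556, 0.00556 and 0.0139). For the other pairs of the 15, P was above 0.05 with 6 mice left, although r stayed at -0.83 for Arntl with Per3, -0.82 for Arntl with Dbp, 0.82 for Per2 with Dbp and 0.79 for Per2 with Per3. It dropped to 0.66 for Arntl with Clock and to 0.21 for Clock with Npas2. Because WT replicate 23 also had the lowest macrophage, endothelial and lymphocyte marker sums, these values move together in that mouse, and their part in the correlations was not tested.

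Across all 13278 tested genes, the 5 most like Arntl over the 8 mice, by Pearson's r of log2 CPM, were Clpx (0.977), Wapl (0.977), Npas2 (0.976), 2210408I21Rik (0.976) and Caprin1 (0.972). Clock ranked 20th (0.948). The 5 most like Dbp were Sac3d1 (0.980), Akap12 (0.947), Sirt7 (0.945), Ccdc8 (0.944) and Per3 (0.942), and Per2 ranked 64th (0.840). With 8 points, high values of r are reached by many genes, and no test was made of these ranks.

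The second loop and its neighbours were a list of 11 genes, of which 9 were tested. None was called by edgeR, 1 was higher at an unadjusted P under 0.05 (8.65% of all tested genes were) and 1 was lower (8.06% were). DESeq2 called 1, beside 144 of all 13278 tested genes. The median log2 fold change of the list was -0.08 (0.06 without WT replicate 23), and that of all tested genes -0.01. Nr1d1, which encodes REV-ERBα, had 1316, 896, 1851 and 1543 normalized counts in WT livers and 1617, 1297, 1341 and 949 in MøFoxO1-KO livers, with a log2 fold change of -0.11 (SE 0.23). Nr1d2, which encodes REV-ERBβ, had 935, 740, 892 and 873 in WT and 983, 854, 1198 and 795 in MøFoxO1-KO livers, a log2 fold change of 0.15 (SE 0.14). Replicate 23 was the lowest of the 8 for both, as it was for Per2, Per3 and Dbp. The within-group SD of log2 CPM was 0.39 for Nr1d1 and 0.21 for Nr1d2, and Nr1d2 was at 0.04 without MøFoxO1-KO replicate 28. Nr1d1 exons share 263 bases with Thra on the opposite strand.

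The list's gene with the smallest P was Bhlhe41, which encodes the repressor DEC2. Bhlhe41 had 28.1, 20.6, 60.9 and 29.9 normalized counts in WT livers and 155, 74.0, 117 and 58.2 in MøFoxO1-KO livers. Replicate 29 lay just under WT replicate 24, and the other MøFoxO1-KO mice were above every WT mouse. Its log2 fold change was 1.53 ± 0.40 (SE, edgeR, Benjamini-Hochberg adjusted P = 0.131), and DESeq2 gave 1.55 (Benjamini-Hochberg adjusted P = 0.00895), so that Bhlhe41 passed both limits by DESeq2 and not by edgeR.

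Rora, an activator of Arntl, had 709 ± 170 (SD, n = 4) normalized counts in WT and 544 ± 20.4 in MøFoxO1-KO livers, with a log2 fold change of -0.38 ± 0.16 (SE, edgeR, unadjusted P = 0.0341, Benjamini-Hochberg adjusted P = 0.259), and -0.21 without WT replicate 23. The PAR domain relatives of Dbp, Tef and Hlf, had log2 fold changes of 0.27 (SE 0.26) and -0.08 (SE 0.19). Tef had 2214, 1173, 2129 and 1982 normalized counts in WT and 2302, 1827, 3351 and 1534 in MøFoxO1-KO livers, with replicates 23 and 28 at the ends, as for Per2 and Per3, and its log2 fold change was 0.10 without the first and 0.02 without the second. Bhlhe40 (-0.14), Nfil3 (-0.20), which encodes a repressor at D-boxes, and Timeless (0.18) had small log2 fold changes with unadjusted P values above 0.1, and Timeless lay between 0.10 and 0.30 with each mouse left out in turn. The signs for Nr1d1, Bhlhe40 and Hlf turned when single mice were left out. Rorb had no counts in any mouse and Arntl2 was too low to be tested.

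Of 26 genes for kinases, ubiquitin ligases and cofactors that act on clock proteins, 26 were tested, none was called by edgeR and DESeq2, 5 were lower and 0 higher at an unadjusted P under 0.05 (8.06% and 8.65% of all tested genes were), and 5 had non-overlapping groups (9.71% of all tested genes did). Their median log2 fold change was -0.14. Btrc, whose product marks PER proteins for degradation, had a log2 fold change of -0.44 ± 0.12 (SE, edgeR, Benjamini-Hochberg adjusted P = 0.148), with 294 to 357 normalized counts in WT and 223 to 282 in MøFoxO1-KO livers. Gsk3b, a kinase of clock proteins, was at -0.63 ± 0.19 (SE, edgeR, Benjamini-Hochberg adjusted P = 0.175), with 489 to 869 against 328 to 451. Neither pair of ranges overlapped, and the highest Gsk3b value was that of replicate 23, without which the log2 fold change was -0.40. The coactivator Ep300 had a log2 fold change of -0.28 and the corepressor Ncor1 of -0.42 (edgeR, Benjamini-Hochberg adjusted P = 0.237 and 0.244), and Ncor1 was at -0.26 without WT replicate 23. Without WT replicate 23, 3 of the 26 genes passed the unadjusted limit and their median was -0.08.

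Liver genes known as outputs of the clock numbered 27, all tested. None was called by edgeR or DESeq2, and 1 was higher and 5 lower at an unadjusted P under 0.05, beside 16.7% of all tested genes in either direction, with a median log2 fold change of -0.23. Fmo2 had 350 ± 121 (SD, n = 4) normalized counts in WT and 147 ± 46.8 in MøFoxO1-KO livers, without overlap, and a log2 fold change of -1.25 ± 0.28 (SE, edgeR, Benjamini-Hochberg adjusted P = 0.102; DESeq2, adjusted P = 0.00274). Tspan4 was at 0.45 ± 0.12 (SE, edgeR, Benjamini-Hochberg adjusted P = 0.132; DESeq2, adjusted P = 0.0256), also without overlap. Alas1, the first enzyme of heme synthesis, had a log2 fold change of -0.45 and Klf9, a glucocorticoid-responsive factor, of -0.95 (edgeR, Benjamini-Hochberg adjusted P = 0.259 and 0.254). Alas1 was at -0.28 without MøFoxO1-KO replicate 27. Klf9 was at -0.46 without WT replicate 23, and its WT values of 680, 1646, 573 and 610 were highest in replicate 23. Without that mouse 3 of the 27 genes passed the unadjusted limit and the list's median was -0.10.

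Feeding state, glucocorticoids, body temperature and serum factors are known to set the clock in liver. Lists of genes that respond to each were examined for that reason, and were chosen with earlier results of these data known. Of 17 fasting and feeding genes, 16 were tested, none was called by edgeR or DESeq2, 1 was higher and 3 lower at an unadjusted P under 0.05 (16.7% of all tested genes in either direction), and the median log2 fold change was -0.18, or -0.11 without WT replicate 23. Pdk4, a fasting-induced kinase that limits glucose oxidation, had 288, 459, 591 and 301 normalized counts in WT and 84.4, 156, 109 and 329 in MøFoxO1-KO livers, with a log2 fold change of -1.28 ± 0.40 (SE, edgeR, Benjamini-Hochberg adjusted P = 0.183; DESeq2, adjusted P = 0.0422). Replicate 29 was the only MøFoxO1-KO mouse in the WT range. Creb3l3 (0.31), Ppargc1a (-0.53) and Irs2 (-0.65) followed by P, with adjusted P values of 0.237, 0.243 and 0.259 (edgeR, Benjamini-Hochberg), and Irs2 was at -0.42 without WT replicate 24.

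All 12 glucocorticoid-responsive genes were tested, none was called by edgeR or DESeq2, and 0 were higher and 2 lower at an unadjusted P under 0.05, a share equal to the 16.7% of all tested genes in either direction, with a median log2 fold change of -0.36 that was -0.12 without WT replicate 23 and also without MøFoxO1-KO replicate 27. The 2 lower genes were Zbtb16 (-1.31, edgeR, Benjamini-Hochberg adjusted P = 0.211) and Lcn2 (-1.69, adjusted P = 0.215), and Lcn2 was at -0.57 without WT replicate 23. Lcn2, which encodes an acute-phase protein, had 413, 1873, 331 and 242 normalized counts in WT livers, with replicate 23 far above the others, and 231, 167, 168 and 322 in MøFoxO1-KO livers. Errfi1 (-0.70) and Dusp1 (-0.59) came next, and replicate 23 was the highest of the WT mice for both, at 11138 and 817 normalized counts. Dusp1 was at -0.17 without it.

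In the list of 15 temperature and serum responsive genes, all were tested, 3 were higher and 2 lower at an unadjusted P under 0.05, against 16.7% of all tested genes in either direction. The median log2 fold change was 0.16, and it turned to -0.02 without MøFoxO1-KO replicate 27. None was called by edgeR, and DESeq2 called 2, Hspa1a and Hspa1b, beside 144 of all 13278 tested genes. Limma-voom called none of the genes of the 6 lists. Hspa1a, which encodes an inducible HSP70, had 11.2, 18.7, 9.23 and 11 normalized counts in WT and 20.1, 214, 42.7 and 75.0 in MøFoxO1-KO livers, without overlap. For Hspa1a the log2 fold change was 2.79 ± 0.67 (SE, edgeR, Benjamini-Hochberg adjusted P = 0.119; DESeq2, adjusted P = 0.000805). Hspa1b, a near-identical copy, had 185, 76.7, 268 and 149 in WT and 229, 1153, 442 and 482 in MøFoxO1-KO livers, with a log2 fold change of 1.76 ± 0.49 (SE, edgeR, Benjamini-Hochberg adjusted P = 0.143; DESeq2, adjusted P = 0.00553). Reads can be split between these copies, so the value of either alone is uncertain. The immediate early gene Ier2 was at 0.42 without overlap of the groups and Egr1 at -1.34 (edgeR, Benjamini-Hochberg adjusted P = 0.183 and 0.215), with Egr1 highest in WT replicate 24 at 608 normalized counts against 146 to 181 in the other WT mice. Without that mouse Egr1 was at -0.61.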

How the data were processed

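The authors deposited a table of raw read counts per Ensembl gene on GRCm38, made from poly(A)-selected RNA, and STAR, featureCounts and mm10 are named in the submitters' processing notes. Strand and multi-mapping settings are not given in the sources used here. Symbols came from GENCODE M21 (46005 of 46517 genes). No pair of libraries agreed within sampling noise (chi-square per gene of at least 30.4).

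After filterByExpr (minimum count 10, minimum total 15; 13278 genes) and TMM scaling, counts were fitted in edgeR 4.0.16 (R 4.3.3; common biological coefficient of variation 0.256) and tested by quasi-likelihood, with Benjamini-Hochberg adjustment. A call needed an adjusted P below 0.05 and a log2 fold change beyond 1.5 in either direction. Two-sided exact permutation tests (scipy 1.17.1) of 4 against 4 mice allow no P under 0.0286. RPKM was computed from TMM-scaled counts and summed exon length.

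Alternatives were DESeq2 1.42.0 and its size factors, limma-voom (limma 3.58.1), upper-quartile scaling, the robust fit, other filters, the adjusted P alone, and leaving out each mouse. Correlations without WT replicate 23 were chosen after seeing the data. Counts were also simulated with edgeR's own dispersions (13047 genes, 200 changed 4-fold) and judged by an adjusted P below 0.05 alone, without the fold-change limit. By that looser rule edgeR recovered 176 with 8 false, DESeq2 180 with 24 and limma-voom 173 with 7. The 10 clock genes and the 6 other lists (108 genes) were chosen with earlier results of these data known. Named genes are the 10, Foxo1, the second-loop list and the 4 genes of smallest P in each other list. The 5 most like Arntl and Dbp are also named, as are genes whose exons overlap those of Dbp, Cry2 or Nr1d1. Another gene of the second loop was left out of its list and is not reported here. Insig2, Usp2 and Wee1 were chosen after their values were seen.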

Additional observations from a re-analysis of the deposited data

Results flagged for a closer look

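Values were looked at for a single mouse far from the other 3 of its group, by the ratio of its gap to the whole range against Dixon's critical value. Of 78 groups tested, 8 had such a mouse, and chance alone is expected to mark about 1 group in 20. Among the clock genes these were Npas2 in WT replicate 23, the highest of its group at 99.3 normalized counts (ratio 0.902), and Per1 in WT replicate 25, the highest at 509 (ratio 0.954). WT replicate 23 was also the highest of its group for Gsk3b at 869, Klf9 at 1646 and Lcn2 at 1873. MøFoxO1-KO replicate 27 was the lowest of its group for Rora at 514, though the others lay close by, at 552 to 557. It was also the highest for Creb3l3 at 7497, and WT replicate 24 was the highest for Egr1 at 608.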

How the results depend on the processing

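The number of clock genes called was 0 under every alternative run. Those past an unadjusted P of 0.05 were 0 in the reported fit, 1 by DESeq2, 2 without a filter on low counts, 1 by limma-voom and 0 to 3 when 1 mouse was left out (3 without WT replicate 22). Over all tested genes 25 were called, against 144 by DESeq2, 120 without the filter, 13 by limma-voom, 39 by the adjusted P alone and 3 (without WT replicate 25) to 82 (without MøFoxO1-KO replicate 28). In the 6 other lists 0 were called, against 3 by DESeq2 and 2 without the filter, and 24 were past the unadjusted limit, against 15 to 24 with 1 mouse left out (15 without MøFoxO1-KO replicate 27). With 1 mouse left out, log2 fold changes lay from -0.59 to 0.25 for Cry1, -0.22 to 0.05 for Cry2, -0.27 to 0.06 for Nr1d1, -0.36 to 0.07 for Bhlhe40 and -0.22 to 0.04 for Hlf, and Ciart was at -0.06 by limma-voom. Those of the other 7 clock genes kept their sign. The 15 correlated pairs became 5 after centring on group means, 0 without the 2 farthest mice, where fewer mice remained, and 5 without WT replicate 23. Where no construction of the alternative shows it, the cause was not tested. No paired analysis was possible because the replicate numbers of the groups are not shared. Total counts limit Npas2 and Ciart most.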

Other observations

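Insig2 and Wee1 of the liver clock output list, and Usp2 of the list of kinases, ligases and cofactors, were chosen after their values were seen. Their pooled within-group SDs of log2 CPM were 0.79, 1.05 and 1.0, above the median of 0.77 of the clock genes. The medians of their 2 lists were lower, at 0.45 for the output genes and 0.19 for the kinases, ligases and cofactors. Insig2, which restrains the processing of sterol regulatory element binding proteins and is known to cycle under REV-ERBα, had 3714, 8834, 3256 and 5137 normalized counts in WT replicates 22 to 25 and 3548, 6083, 1472 and 5234 in MøFoxO1-KO replicates 26 to 29. As for Arntl, replicate 23 was the highest and replicate 28 the lowest. Its log2 fold change was -0.36 ± 0.43 (SE, edgeR, Benjamini-Hochberg adjusted P = 0.718), which was -0.06 without MøFoxO1-KO replicate 28 and turned to 0.02 without WT replicate 23. Usp2, a deubiquitinase with a strong daily rhythm in liver, had 390, 255, 178 and 281 in WT and 357, 142, 610 and 75.0 in MøFoxO1-KO livers, with replicates 28 and 29 at the ends, as for Ciart. Wee1, a cell cycle kinase driven through E-boxes, had 139, 80.6, 53.5 and 33.8 in WT and 52.7, 13.1, 80.7 and 14.6 in MøFoxO1-KO livers, and its log2 fold change was -0.91 ± 0.60 (SE, edgeR, Benjamini-Hochberg adjusted P = 0.486), with values from -1.48 without MøFoxO1-KO replicate 28 to -0.46 without WT replicate 22.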
